A study of Mus musculus with 9 samples.

Results

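The stellate cell and fibrosis genes described here are 10 genes of the fibrous matrix and of the cells that make it: Col1a1, Col1a2, Col3a1, Acta2, Des, Dcn, Lum, Timp1, Lrat and Reln. They were chosen by symbol, and 20 probe sets of the array carry those symbols, of 45037 probe sets for 18193 genes in all. A filter on dim probe sets, which asks that the signal lie above the median of its array on at least 3 arrays, kept 16 of the 20, and each of the 10 genes kept at least 1 of them. The measurements come from livers of 11-week-old female mice of the MRL +/+ strain, which tends to autoimmunity. Mice received dichloroacetyl chloride (DCAC) or dichloroacetic anhydride (DCAA) at 0.2 mmol/kg in 100 µl of corn oil, injected into the peritoneum 2 times a week for 6 weeks, and control mice received corn oil alone; the sample labels call these controls untreated. Livers were taken 24 h after the last injection, from 3 mice per group with 1 array per mouse, and precision is limited by these small numbers. Whole liver was used, and for every gene below fewer cells of a type and less RNA per cell cannot be told apart.

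Hepatic stellate cells lie between hepatocytes and the sinusoidal endothelium and store vitamin A as retinyl esters. In liver injury they can become myofibroblasts, which contract and lay down fibrillar collagen; portal fibroblasts around the bile ducts and the mesothelial cells of the liver surface are other sources of matrix. Transforming growth factor beta and platelet-derived growth factor are the classical signals for this change, and the matrix is removed by metalloproteinases, which the tissue inhibitors of metalloproteinases restrain.

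The members fall into 4 roles. Col1a1 and Col1a2 encode the chains of type I collagen and Col3a1 the chain of type III collagen, the main fibrillar collagens of scar tissue. Dcn and Lum encode decorin and lumican, small proteoglycans that bind collagen fibrils and set their spacing, and Timp1 encodes an inhibitor of metalloproteinases. Acta2 encodes smooth muscle alpha actin, the usual mark of myofibroblasts, and Des encodes desmin, an intermediate filament of muscle and of rodent stellate cells. Lrat encodes the enzyme that esterifies retinol in quiescent stellate cells, and Reln encodes reelin, a secreted glycoprotein which in liver is made mainly by stellate cells.

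Promoters of 7 of the 10 genes were found in the RefSeq table of mouse promoters (GRCm38.p6), each reaching from 250 bases before to 50 bases after the annotated start. Those of Col1a2, Col3a1 and Timp1 are shown as examples of genes whose signals were highest together on 1 array. That of Reln is shown because its signal was lower with both compounds. The promoters of Acta2 and Des, each also highest on that array by 1 probe set, are not shown. Capitals mark every match to TATAAA (the TATA box), to CCAAT (the CCAAT box) or to GGGCGG (the GC box) on either strand, so that a match on the opposite strand is read in its reverse complement, such as ATTGG for the CCAAT box; no 2 matches overlap.
Col1a2, chr6:4505368-4505667, plus strand: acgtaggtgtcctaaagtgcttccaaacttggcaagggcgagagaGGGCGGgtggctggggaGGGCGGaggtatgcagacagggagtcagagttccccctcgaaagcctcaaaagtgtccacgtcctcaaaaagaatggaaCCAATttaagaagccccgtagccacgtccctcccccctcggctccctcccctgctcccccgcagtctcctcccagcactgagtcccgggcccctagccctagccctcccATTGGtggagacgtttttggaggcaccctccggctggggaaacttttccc
Col3a1, chr1:45311288-45311587, plus strand: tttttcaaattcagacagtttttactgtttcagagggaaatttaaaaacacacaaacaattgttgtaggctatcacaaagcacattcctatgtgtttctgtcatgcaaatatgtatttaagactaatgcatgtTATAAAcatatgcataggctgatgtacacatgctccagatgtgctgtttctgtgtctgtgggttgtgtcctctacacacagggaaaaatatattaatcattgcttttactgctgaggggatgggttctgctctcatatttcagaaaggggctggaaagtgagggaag
Timp1, chrX:20869916-20870215, plus strand: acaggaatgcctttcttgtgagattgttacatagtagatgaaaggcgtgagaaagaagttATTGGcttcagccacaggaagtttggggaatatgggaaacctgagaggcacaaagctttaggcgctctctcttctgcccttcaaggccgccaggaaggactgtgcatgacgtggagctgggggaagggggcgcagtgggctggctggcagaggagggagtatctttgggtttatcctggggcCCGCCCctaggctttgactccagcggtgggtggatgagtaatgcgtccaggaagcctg
Reln, chr5:22344656-22344955, minus strand: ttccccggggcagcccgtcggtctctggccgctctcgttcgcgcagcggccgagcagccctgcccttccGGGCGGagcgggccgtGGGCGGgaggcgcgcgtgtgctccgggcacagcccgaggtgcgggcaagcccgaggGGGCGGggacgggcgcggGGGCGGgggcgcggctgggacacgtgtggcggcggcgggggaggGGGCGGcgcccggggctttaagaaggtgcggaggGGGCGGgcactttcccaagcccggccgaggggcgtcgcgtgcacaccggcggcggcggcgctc
Col1a2 held 2 matches to CCAAT and 2 to GGGCGG, Timp1 held 1 of each and Col3a1 held 1 to TATAAA. Reln held 6 matches to GGGCGG, the first at position -181 and the last at -13 from the start, and none to the other motifs. TATAAA was found in 1 of the 7 promoters, CCAAT in 3 and GGGCGG in 5, against 13.6%, 37.4% and 35.7% of 32851 mouse promoters of the same length. A match describes the letters only. Dcn and Lum are neighbours in the same RefSeq build, with 0 protein-coding genes between them.

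Some arrays stood apart. The array labelled control 2 carried kidney transcripts: the summed signal of 12 kidney markers was 129868 on it and 1766 to 2964 on the other 8, while 11 hepatocyte markers summed to 30264 against 325055 to 447718. It is shown apart and enters no comparison below, which leaves 2 corn oil livers, controls 1 and 3. DCAA 3 had the highest median signal of the 8 arrays, 214.3 against 157.2 to 186.1, and a median Spearman correlation of 0.861 with the other 7, against 0.899 to 0.907 for each of those. The 3'/5' ratio of pyruvate carboxylase, read from the manufacturer's control probe sets and higher where RNA or its labelled product is shortened, was 6.43 to 12.8 on DCAC 3 and the 3 DCAA arrays and 2.85 to 3.99 on the remaining arrays. Control 3 had the highest summed signal of 12 macrophage markers, 39110 against 11432 to 18951 on the other 7. Signals are given below as deposited, on the linear scale on which each array was scaled to a trimmed mean of 500.0, and compare a probe set between arrays, not 1 gene with another.

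With either compound, none of the 16 probe sets of these genes passed the test against corn oil (limma, adjusted p under 0.05 by Benjamini-Hochberg, taken over the 24531 probe sets that passed the filter). In the same fits 0.0326% of all probe sets passed with DCAC and 0.0815% with DCAA. Reln was the member with the smallest adjusted p for both compounds, at 0.967 with DCAC and 0.254 with DCAA. The median log2 change of the 10 genes, each taken by its brightest kept probe set, was 0.12 with DCAC and 0.45 with DCAA, against -0.03 and -0.01 over all probe sets kept. Of the 10 genes 6 had positive values with DCAC and 8 with DCAA. Both medians moved with single arrays. The DCAA median was -0.00 without DCAA 3, over 9 genes with 4 of them positive, 0.22 without control 1 and 0.81 without DCAA 1. With the class of the 3'/5' ratio in the fit the DCAA median was 0.11. The DCAC median was -0.05 without control 1, -0.02 without DCAC 3 and 0.34 without DCAC 2, over 9 genes. Des is the gene missing from both sets of 9, because its brightest probe set then fell below the filter. Its other probe set, 1426731_at, stayed above the filter. It stood at 0.95 (SE 0.71) with DCAA without DCAA 3 and at -0.12 (SE 0.86) with DCAC without DCAC 2.

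**Figure D1:**
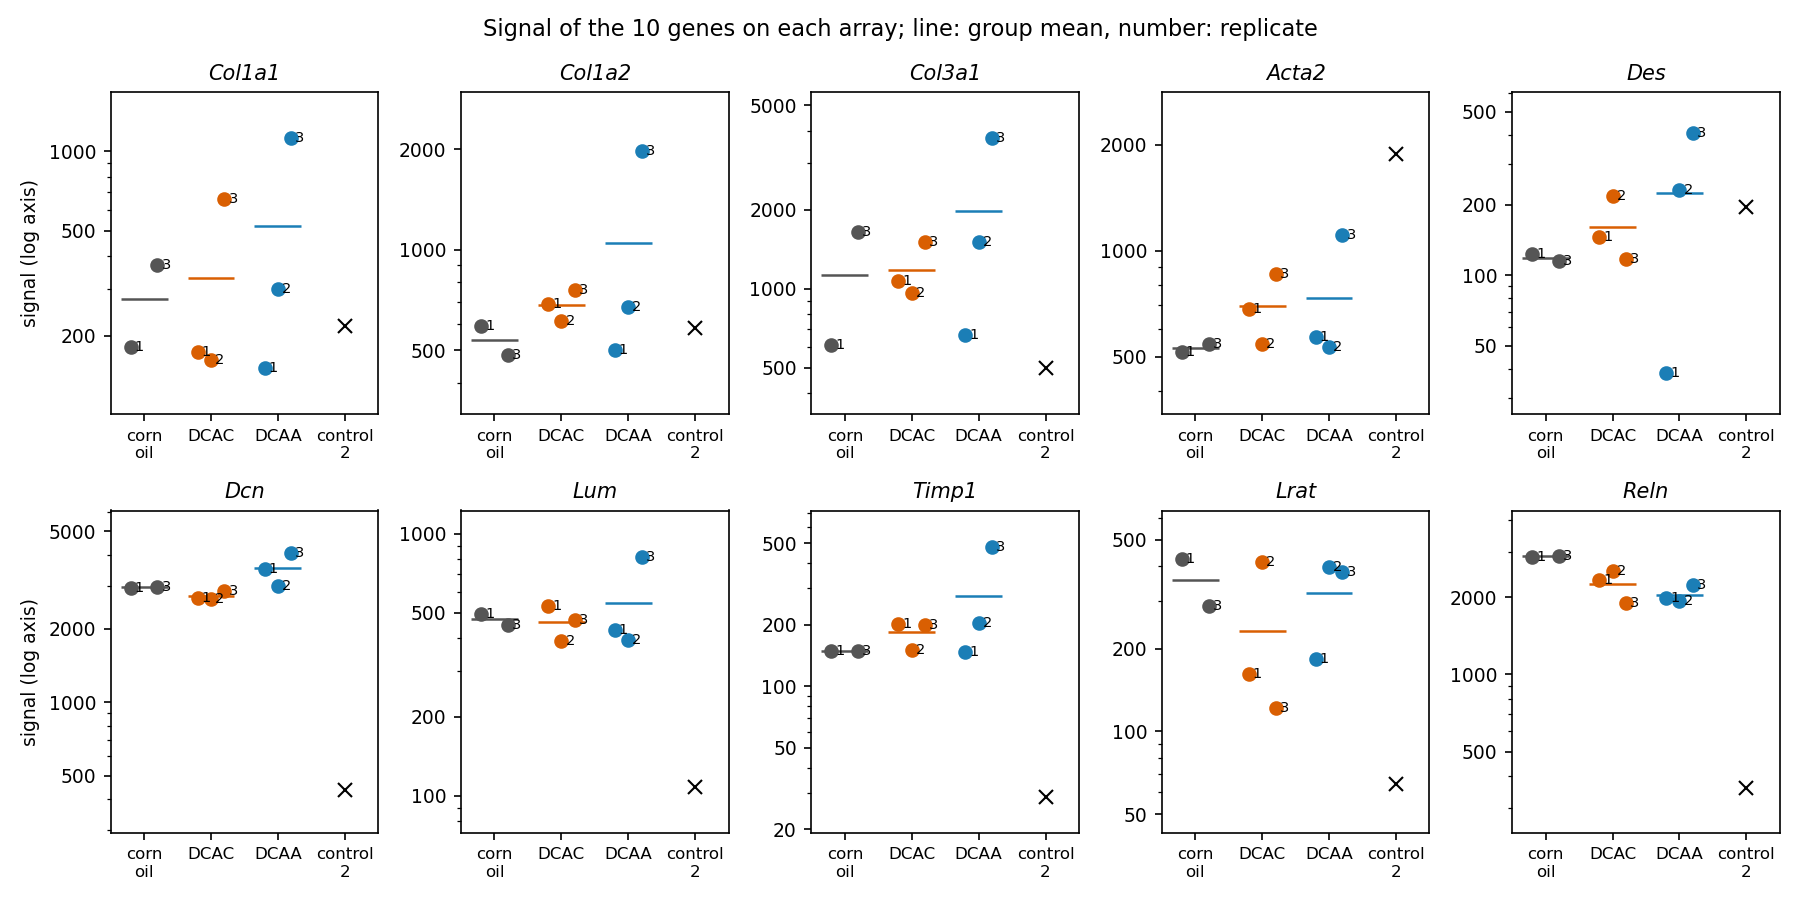
Signal of each of the 10 genes (log axis) on every array, by its brightest kept probe set; points are mice with their replicate number, lines are group means of 2 corn oil, 3 DCAC and 3 DCAA mice, and the cross is control 2, which enters no mean. DCAA 3 is the highest of the 8 points for 8 of the 10 genes, against 25.0% of all probe sets kept. The Des probe set shown passed the filter only through DCAA 3. All 6 treated points of Reln lie below both corn oil points.

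The fibrillar collagens were spread widely within groups. Col1a1 (probe set 1423669_at) had signals of 180.5 and 370.9 in the corn oil livers, of 173.1, 161.7 and 660.7 with DCAC, and of 151, 299.3 and 1118.7 with DCAA. The highest value of each treated group came from replicate 3, and the remaining 4 treated livers lay below the higher control. The log2 change was 0.03 (SE 0.76) with DCAC and 0.52 (SE 0.76) with DCAA, with adjusted p of 0.998 and 0.815 in limma. The DCAA value was -0.28 without DCAA 3, and -1.47 with the class of the 3'/5' ratio in the fit. The high class holds all 3 DCAA arrays and, of the others, DCAC 3 alone, so the value in that fit rests on DCAC 3, and RNA quality cannot be told apart from that mouse. The other Col1a1 probe set, 1455494_at, read 986.1 on DCAA 3 and 59.3 to 320.8 on the other 7 arrays. It had the same ranking of the top arrays, DCAA 3 and then DCAC 3.

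Col1a2 (1450857_a_at) read 591.4 and 483.4 in corn oil livers, 687.9, 611 and 757.9 with DCAC, and 500, 672.6 and 1975.2 with DCAA. All 3 DCAC livers lay above both controls, by little, and among DCAA livers only DCAA 3 stood far from them. The change was 0.35 (SE 0.43, 95% interval -0.58 to 1.29) with DCAC and 0.71 (SE 0.43, -0.23 to 1.64) with DCAA, and neither passed (limma adjusted p = 0.987 and 0.531); without DCAA 3 the DCAA value was 0.12 (SE 0.23). A dimmer probe set, 1423110_at, read 880.9 on DCAA 3 and 33.1 to 209.9 elsewhere, a lead of 4.20-fold over the next array. The probe set 1446326_at stayed below the filter, at 3.8 to 75.2.

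Col3a1 (1427883_a_at) differed between the controls themselves, 611.4 in control 1 and 1641.1 in control 3. It read 1066.4, 965 and 1499.4 with DCAC and 664.7, 1501.2 and 3738.9 with DCAA. DCAA 3 stood 2.28-fold above the next array, and the other 5 treated livers lay within the span of the controls. The change was 0.21 (SE 0.56) with DCAC and 0.63 (SE 0.56) with DCAA; with DCAA 3 left out the DCAA value was -0.00 (SE 0.46). Its second probe set, 1427884_at, was dim, at 94 to 235.6 on 7 arrays and 319.5 on DCAA 3. The controls were 2.68-fold apart, more than the fitted 1.15-fold and 1.55-fold of the treated groups over them: taking control 1 alone gave a DCAC change of 0.92 and taking control 3 alone gave -0.51.

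**Figure D2:**
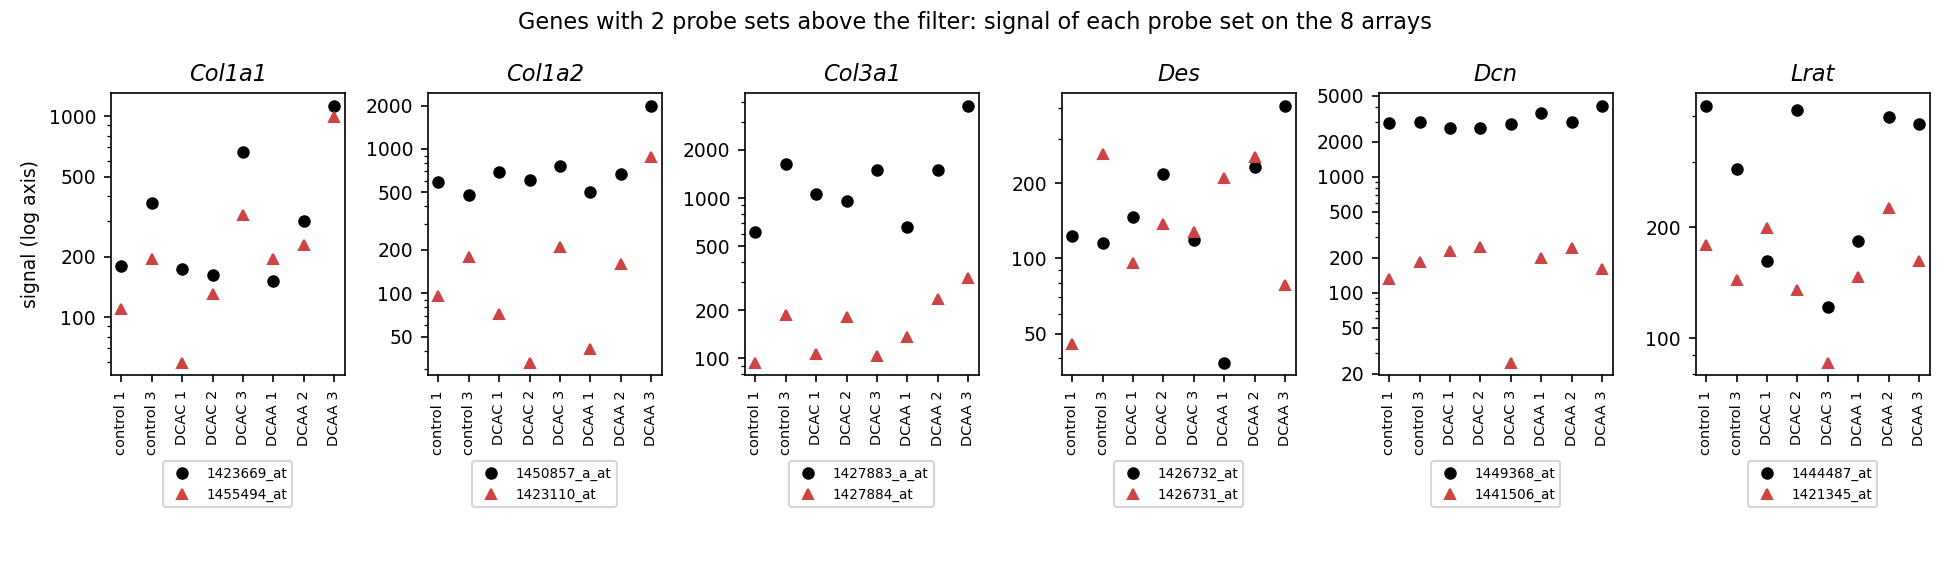
Signal (log axis) on each of the 8 arrays for the 6 genes with 2 kept probe sets; black circles are the brighter probe set and red triangles the dimmer. Both probe sets of Col1a1, Col1a2 and Col3a1 are highest on DCAA 3, while those of Des, Dcn and Lrat are highest on different arrays.

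Decorin and lumican were steadier. Dcn (1449368_at) read 2926 and 2970 in corn oil livers, 2661, 2638 and 2862 with DCAC, and 3520, 2997 and 4060 with DCAA. Every DCAC liver was below both controls and every DCAA liver above both. The nearest DCAA liver was closer to the higher control than the controls were to each other. Such separation was common over all probe sets: 12.5% lay wholly below the controls with DCAC and 16.1% wholly above them with DCAA. The change was -0.12 (SE 0.16, adjusted p = 0.987) with DCAC and 0.25 (SE 0.16, adjusted p = 0.554) with DCAA in limma. The dim second probe set, 1441506_at, ran from 24.9 on DCAC 3 to 247.8 on DCAC 2 and its groups overlapped.

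Lum (1423607_at) read 495.2 and 448.8 in corn oil livers, 527.6, 388.2 and 468.5 with DCAC, and 427.2, 392.9 and 816.6 with DCAA. The groups overlapped, and DCAA 3 stood above the other 7 livers, which lay between 388.2 and 527.6. The change was -0.04 (SE 0.31) with DCAC and 0.13 (SE 0.31) with DCAA, and -0.20 (SE 0.24) with DCAA when DCAA 3 was left out.

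Timp1 (1460227_at) read 148.1 and 148.9 in the corn oil livers, 200.4, 150.5 and 198.8 with DCAC, and 146.1, 204.1 and 480.4 with DCAA. The DCAC livers lay above both controls, the lowest by little, at 150.5 against 148.9, and the DCAA livers spanned them. Neither control reached its array median, so the probe set passed the filter only through treated arrays. The change was 0.29 (SE 0.49, adjusted p = 0.991) with DCAC and 0.71 (SE 0.49, adjusted p = 0.583) with DCAA in limma, and 0.22 (SE 0.45) with DCAA without DCAA 3. For Col1a2 and Acta2, above the array median in every liver, all 3 DCAC livers also lay above both controls, as they did for 11.2% of all probe sets.

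Acta2 (1416454_s_at) read 514 and 541.6 in corn oil livers, 680.8, 544.2 and 861.2 with DCAC, and 566.6, 531 and 1107.7 with DCAA. The lowest DCAC liver exceeded the higher control by a margin smaller than the difference between the controls. The change was 0.37 (SE 0.31, 95% interval -0.30 to 1.05) with DCAC and 0.39 (SE 0.31, -0.28 to 1.07) with DCAA, with adjusted p of 0.981 and 0.629 in limma. Without DCAA 3 the DCAA change was 0.06 (SE 0.24). The suffix of this probe set marks probes that other transcripts of a family can share, so other actins cannot be told apart from Acta2. The 2 further Acta2 probe sets, 1456658_at and 1444105_at, stayed below the filter, with 24.9 and 94 on DCAA 3, and neither was highest there. Myh11, the smooth muscle myosin, was at 13.2 to 120.4 on the 8 arrays.

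Des (1426732_at) was dim, at 123.4 and 115.3 in corn oil livers, 146, 218.2 and 118.1 with DCAC, and 38.3, 231.8 and 405.1 with DCAA. No control reached its array median, and the DCAA livers held both the lowest and the highest value. The change was 0.38 (SE 0.72) with DCAC and 0.55 (SE 0.72) with DCAA. The second probe set, 1426731_at, did not follow it: it read 78.3 on DCAA 3 and was highest, at 260.2, in control 3. Des is also a muscle gene, and skeletal muscle transcripts were present on DCAA 1, where Acta1, the skeletal muscle actin, read 794.7 against at most 145.8 on the other 7 arrays; Des was lowest there by the first probe set and at 210 by the second.

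Lrat (1444487_at) read 426.2 and 287.7 in corn oil livers, 161.8, 415.2 and 121.4 with DCAC, and 183.1, 398.8 and 380.5 with DCAA. DCAC 1, DCAC 3 and DCAA 1 were below both controls and the other treated livers lay between them. The change was -0.80 (SE 0.51, 95% interval -1.90 to 0.30) with DCAC, with a limma adjusted p of 0.978, and -0.21 (SE 0.51, adjusted p = 0.895) with DCAA. The second probe set, 1421345_at, was dimmer, at 85.7 to 225.1, and stood at -0.28 (SE 0.51) and 0.13 (SE 0.51).

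Reln (1449465_at) was the member most steadily lower in treated mice. Its signal was 2883 and 2910 in the corn oil livers, 2346, 2535 and 1900 with DCAC, and 1983, 1927 and 2229 with DCAA. All 6 treated livers lay below both controls, and the controls lay closer to each other than to any treated liver; 5.40% of all probe sets had all 6 treated livers lower. The change was -0.37 (SE 0.17, 95% interval -0.73 to -0.01) with DCAC and -0.50 (SE 0.17, -0.86 to -0.14) with DCAA. The unadjusted p was 0.0459 and 0.01, and under 0.05 for 5.02% and 12.6% of all probe sets, and the adjusted p did not pass (limma, 0.967 and 0.254). Of all probe sets 12.5% had every DCAC liver below both controls, as Reln and Dcn did, and 15.6% had every DCAA liver below them, as Reln did. Pooled over both compounds the change was -0.44 (SE 0.15, adjusted p = 0.559 in limma); of all probe sets 0.0734% passed in that comparison, and 7.22% had an unadjusted p under 0.05.

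The second Reln probe set, 1458020_at, was below the filter, at 7.3 to 189.4 on 7 arrays and 378.5 on DCAA 3. In a fit that also contained the class of the 3'/5' ratio, the Reln changes were -0.25 (SE 0.16) with DCAC and -0.14 (SE 0.24) with DCAA. Reln was lower in the class of high ratio. All 4 arrays of high ratio lay below DCAC 1 and DCAC 2, and these treated arrays of low ratio lay below both controls. DCAC 3 had the highest ratio of the 8 arrays, 12.8, and the lowest Reln signal, 1900. Among the DCAA arrays DCAA 3 had the highest ratio, 10.9, and the highest Reln signal, 2229. The DCAA value in that fit rests on DCAC 3, and the part of RNA quality cannot be told apart from that mouse. Without DCAA 3 the DCAA change was -0.57 (SE 0.18).

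**Figure D3:**
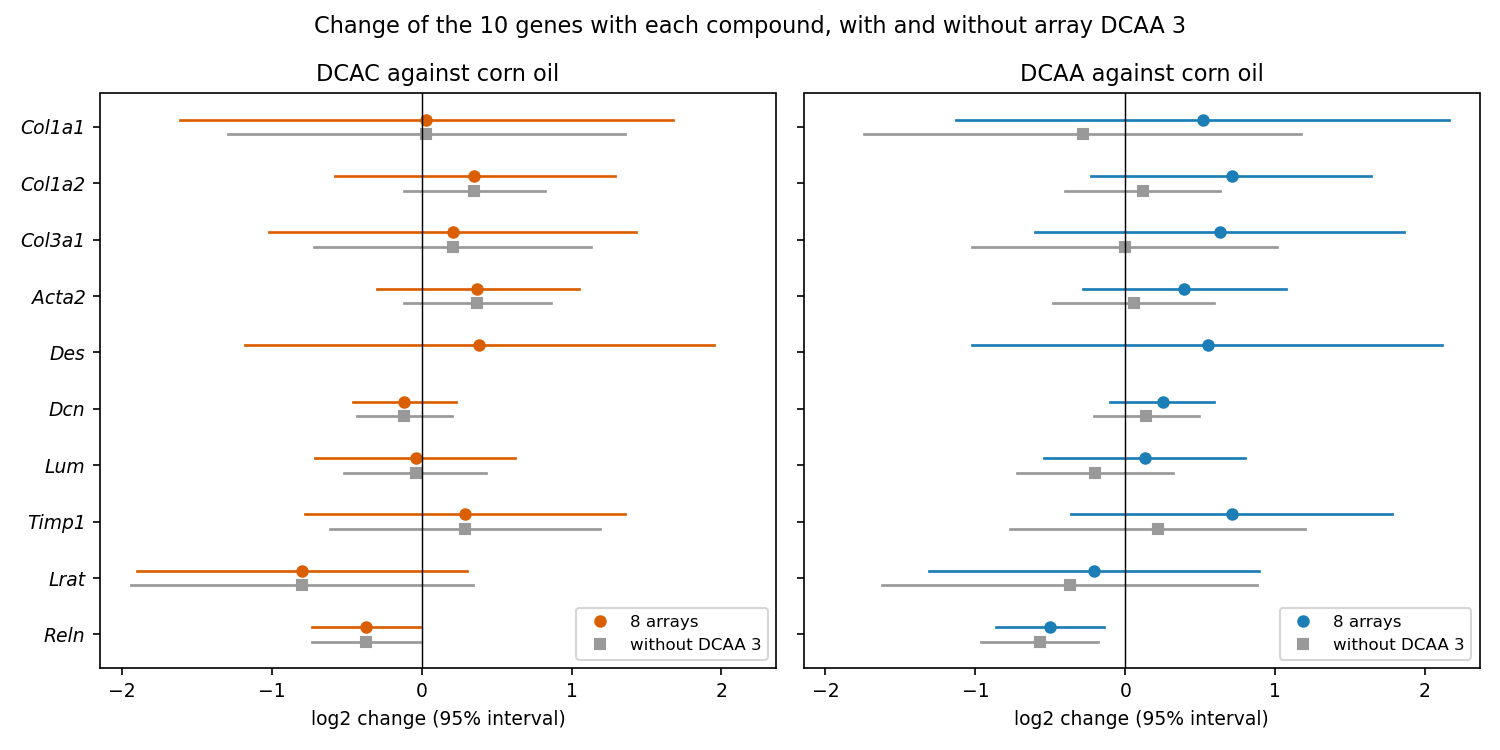
Log2 change with its 95% interval (limma) of the 10 genes with DCAC (left) and DCAA (right) against corn oil. Circles are from 8 arrays and squares from 7, without DCAA 3. Des has no square because its plotted probe set, 1426732_at, no longer passed the filter there. With DCAA the values of the collagens and Timp1 move toward 0 or past it without DCAA 3, while the interval of Reln stays below 0.

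Both compounds deliver a dichloroacetyl group, DCAC as an acyl chloride and DCAA as an anhydride, and they were given at the same molar dose. The 10 genes were compared directly between them in the same fit. None of the 16 probe sets passed, against 0.00408% of all probe sets, and the median difference, DCAC less DCAA, was -0.36 over the 10 genes. It was 0.20 without DCAA 3, over the 9 genes other than Des with 7 positive, and -0.77 without DCAA 1. With the ratio class in the fit, and with arrays set to a common median, it was -0.17. The Des probe set that stayed above the filter without DCAA 3, 1426731_at, stood at -0.97 (SE 0.65) there. Dcn was lower with DCAC than with DCAA by every liver, a difference of -0.36 (SE 0.14, 95% interval -0.67 to -0.06); 7.63% of all probe sets were lower in the same complete way. Its unadjusted p was 0.0246, with 9.28% of all probe sets under 0.05, and its adjusted p 0.493 in limma, and with arrays set to a common median the difference was -0.18 (SE 0.17). Reln differed by 0.14 (SE 0.15, 95% interval -0.19 to 0.46). The intervals of the collagens were wide, from -1.95 to 0.99 for Col1a1, -1.19 to 0.48 for Col1a2 and -1.52 to 0.67 for Col3a1, and do not show that the compounds act alike.

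The pattern these genes share most clearly is the array DCAA 3. It was the highest of the 8 arrays for 8 of the 10 genes, all except Lrat and Reln, and for 11 of the 16 kept probe sets. Of all probe sets kept, 25.0% were highest on it. Des (1426732_at) and Col1a2 (1423110_at) passed the filter only because they were high on DCAA 3, so counts were taken over the probe sets that the other 7 arrays alone keep, a choice made after seeing the data. Of the 14 such probe sets of these genes 9 were highest on DCAA 3, against 23.4% of 23861, and 6 led the next array by at least 1.5-fold, against 2.64%. Against the median of the other 7 arrays DCAA 3 stood 6.20-fold higher for Col1a1, 3.51-fold for Col3a1, 3.23-fold for Col1a2 and 3.19-fold for Timp1. It stood 2.04-fold higher for Acta2, 1.82-fold for Lum, 1.39-fold for Dcn and 1.32-fold for Lrat, and at 0.95 of that median for Reln. For Des it stood 3.28-fold higher by 1426732_at, which is the brighter Des probe set only through its DCAA 3 signal. By 1426731_at, which the other 7 arrays alone keep, DCAA 3 stood at 0.57 of that median.

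Leads on DCAA 3 were more common among dim probe sets, and the members were read against probe sets of like brightness. Where the median of the other 7 arrays was under 250, 6.18% of the probe sets kept by the other arrays led by 1.5-fold on DCAA 3 and 1.33% stood at least 3-fold over that median; Col1a1 and Timp1 are in this class. From 250 to 1000, where Col1a2, Acta2, Lum and Lrat lie, these shares were 2.06% and 0.0699%. Above 1000, where Col3a1, Dcn and Reln lie, they were 0.162% and 0.0808%, and Col3a1 was among the 5 of 6186 probe sets at least 3-fold over the median. Col1a2 was among the 8 of 11447 in its class. The median log2 deviation of the 10 genes from their own 8-array medians was 1.23 on DCAA 3 and between -0.30 and 0.15 on the others. It was 1.0 on DCAA 3 over the 9 genes left without Des. The Des probe set that the other 7 arrays alone keep, 1426731_at, went the other way and is not in that median. It read 78.3 on DCAA 3, 0.57 of the median of the other 7.

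Some other lists of fibroblast and matrix genes were also high on DCAA 3, and others were not. Among portal fibroblast and mesenchymal genes, 4 of the 6 that the other arrays alone keep were highest there, and the 13 measured summed to 4072 against 2341 to 2997. Fbln2 and Fbln1, fibulins of the elastic matrix, stood at 1.91-fold and 1.81-fold of the other arrays' median. Of small leucine-rich proteoglycans 3 of 4 were highest there, and of 13 other collagen genes 6 were, Col5a1 at 1.59-fold. Over all probe sets that the other 7 arrays alone keep, 23.4% were highest there. The share was 32.5% where the median of those arrays was under 250. Other lists had such counts as well, 8 of 15 for acute phase genes and 8 of 23 for TGF-beta and PDGF signalling. Thy1, a surface glycoprotein of portal fibroblasts, at 2.71-fold and Epyc, the proteoglycan epiphycan, at 3.67-fold passed the filter only through DCAA 3. Other stellate cell markers stayed in range as a sum, 14729 against 11576 to 15286, though Hand2, a stellate cell transcription factor, stood at 2.44-fold. The summed signal was also in range for other collagen genes, 26995 against 25859 to 28753, and for matrix glycoproteins, 77241 against 61641 to 84247. Metalloproteinases and their inhibitors summed to 6221 against 4660 to 6616.

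Markers of other cells moved with DCAA 3 to different degrees. The 14 contractile and myofibroblast genes summed to 15790 there, just above the 11512 to 15582 of the other arrays, with a median deviation of 0.37. Of the 6 kept, 3 were highest there, against 23.4% of all probe sets that the other 7 arrays alone keep. These were Tpm2, a tropomyosin, at 1.66-fold of the other arrays' median, Vim, vimentin, at 1.67-fold and Postn, periostin, at 1.74-fold. Myh11 read 19.8 there. Cholangiocyte markers summed to 1367 against 687 to 1262, and kidney markers to 2964 against 1766 to 2363. Summed skeletal muscle markers were 1633, second to the 3511 of DCAA 1. The summed mesothelial signal was 1981, within 856 to 2159, and Msln, mesothelin, read 79.4. The 3'/5' ratio of actin was also the highest of the 8 arrays there, 2.588 against 1.298 to 2.003. The part of tissue composition, RNA quality and the array's higher median in these leads was not tested.

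**Figure D4:**
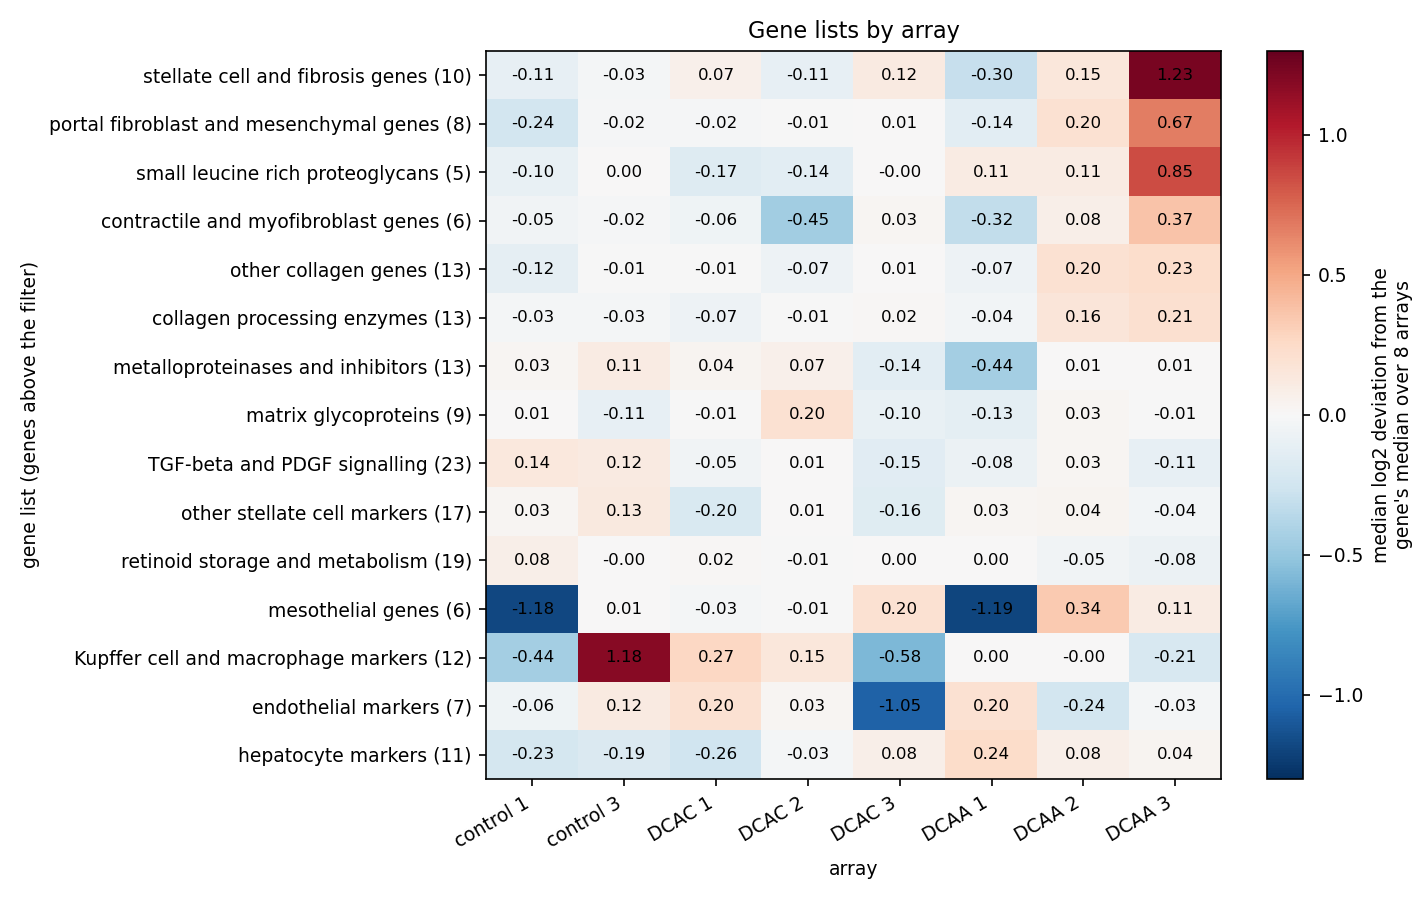
Median log2 deviation of each gene list (rows, with the number of genes above the filter) on each of the 8 arrays (columns) from each gene's own median over the 8 arrays; red is higher and blue lower. The stellate cell and fibrosis genes reach 1.23 on DCAA 3, next to 0.85 for proteoglycans and 0.67 for portal fibroblast genes. Each of these 3 medians includes probe sets that passed the filter only through DCAA 3. With those probe sets left out, and Des with them, the medians on DCAA 3 are 1.0, 0.51 and 0.48, in the same order. Macrophage markers stand out on control 3 and mesothelial genes are low on control 1 and DCAA 1.

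Other arrays marked by cell type genes bear on single members. The mesothelial genes had a median log2 deviation of -1.18 on control 1 and -1.19 on DCAA 1, the arrays with the 2 lowest Col3a1 signals; their part in the Col3a1 values was not tested. Macrophage markers deviated by 1.18 on control 3, where Marco, a scavenger receptor of macrophages, read 1588 against at most 252.3 elsewhere and Col3a1 was the second highest of 8. Endothelial markers deviated by -1.05 on DCAC 3, which had the lowest Reln and the lowest Lrat signal; this was not tested either.

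The rest of the fibrosis pathway showed no gene past the adjusted threshold with either compound, in any of the lists for stellate cells, contractile genes, portal fibroblasts, mesothelium, collagens, collagen processing, proteoglycans, glycoproteins, metalloproteinases, TGF-beta and PDGF signalling, retinoids or the reelin pathway. Acute phase genes, measured beside them, did: of 15, Saa1, Saa2, Lcn2 and Orm2 rose with both compounds and Apcs and Lrg1 with DCAA as well. Saa1, a serum amyloid A gene, stood at 4.08 and 3.70 in log2, with limma adjusted p of 0.00308 and 0.00586.

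Of 17 other stellate cell markers kept, the median log2 change was -0.25 with DCAC and -0.23 with DCAA, and 7 and 4 of them had every treated liver below both controls, against 12.5% and 15.6% of all probe sets. Colec10 and Colec11, secreted collectins made by stellate cells, stood at -0.60 and -0.23 with DCAC and at -0.23 and 0.16 with DCAA. Ecm1, an extracellular matrix protein, stood at -0.44 and -0.27. Nes, the intermediate filament nestin, stood at -0.62 and -1.02. Colec11 read 2536 and 2608 in corn oil livers, 2147 to 2249 with DCAC and 2500 to 3225 with DCAA, so that like Dcn all its DCAC livers were below the controls.

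The contractile genes (6 of 14 kept) had medians of 0.05 and 0.26. Cald1, caldesmon, and Vim, vimentin, the brightest, stood at 0.20 and 0.28 with DCAC and at 0.28 and 0.46 with DCAA, and Tpm2, a tropomyosin, at 0.20 and 0.63. Among 13 other collagen genes the medians were -0.01 and 0.12; Col18a1 and Col4a1, of basement membranes, stood at -0.05 and -0.34 with DCAC and -0.06 and -0.34 with DCAA, Col5a1, of a minor fibrillar collagen, at -0.01 and 0.50, and Col12a1, which binds collagen fibrils, at 0.41 and 0.77. Collagen processing enzymes had medians of -0.05 and 0.13 over 13 genes. P4hb and P4ha2, subunits of the prolyl hydroxylase that stabilises collagen, stood at 0.25 and 0.13 with DCAC and at 0.33 and 0.73 with DCAA, and Bmp1, a procollagen protease, at 0.25 and 0.24.

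The portal fibroblast genes had medians of 0.08 and 0.29 over 8 genes. Eln, elastin, stood at 0.12 and -0.11, Entpd2, an ectonucleotidase, at 0.15 and -0.11, and Loxl1, which crosslinks elastin, at 0.73 and 0.40. Mesothelial genes had medians of 0.57 and 0.48 over 6 genes, in which control 1 was low; Upk1b stood at 0.11 and 0.45, Lrrn4 at 0.80 and 0.51 and Gpm6a at 1.06 and 0.51. The small proteoglycans beside Dcn and Lum had medians of -0.12 and 0.40 over 5 genes. Bgn, biglycan, stood at -0.05 and 0.25, Podn, podocan, at -0.12 and 0.57, and Prelp at -0.22 and -1.10. Matrix glycoproteins had medians of -0.02 and 0.13 over 9 genes; Fn1, fibronectin, stood at 0.20 and 0.13, Vtn, vitronectin, at 0.36 and 0.53 and Nid2, a nidogen of basement membranes, at -0.59 and -1.04.

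TGF-beta and PDGF signalling genes had medians of -0.22 and -0.15 over 23 genes, with 8 below both controls in every liver for each compound, against the same 12.5% and 15.6%. Smad7, an inhibitor of TGF-beta signalling, stood at -1.08 with DCAC and -0.69 with DCAA, and the mediators Smad2 and Smad4 at -0.22 and -0.03 with DCAC and at -1.01 and -0.28 with DCAA. Eng, the co-receptor endoglin, stood at -0.42 and -0.27. Metalloproteinases and their inhibitors had medians of -0.10 and -0.25 over 13 genes; Mmp14, a membrane-bound collagenase, stood at -0.25 and -0.62, Mmp19 at -0.11 and -0.59 and Reck, an inhibitor of metalloproteinases, at -0.69 and -0.97. The smallest adjusted p of any of these named genes was 0.193, for Mmp14 with DCAA in limma.

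Lists tied to Lrat and Reln were examined as well. Over 19 retinoid genes the medians were -0.00 and -0.12, and Pnpla3, a lipase that can act on retinyl esters, stood at -1.53 and -1.24 (limma adjusted p = 0.45 and 0.212). Rbp4, the plasma carrier of retinol, stood at 0.18 and 0.34 and Aldh1a1, which makes retinoic acid, at 0.13 and 0.21. Ces1d, a carboxylesterase, stood at -0.49 and -1.08 (0.0909 for DCAA). Of 6 reelin pathway genes, Vldlr, a reelin receptor, read 633.6 and 877 in corn oil livers and 694.2 to 1030 in treated livers. Dab1, the adaptor that transmits the reelin signal, stood at -0.01 with DCAC and 1.08 with DCAA (adjusted p = 0.332 in limma). Itgb1 and Itga3, integrin subunits, stood at -0.03 and 0.39 with DCAC and at -0.62 and 1.0 with DCAA. For these 2 and for Dab1 the extreme DCAA value was again on DCAA 3, which read 1036 for Itgb1, 1048 for Itga3 and 450.4 for Dab1.

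On the array set apart, control 2, which the filter did not use, the members also departed from the livers. Reln read 361.3 there against 1900 to 2910 on the other 8 arrays, Dcn 437.3 against 2638 to 4060, Lum 108.5, Timp1 28.9 and Lrat 64.1. These and Col3a1, at 498.9, were below all 8 livers, 6 of 10 genes against 23.8% of all probe sets. Counted by kept probe set it was 6 of 16. The dimmer kept probe sets of Col3a1, Dcn and Lrat lay within the range of the livers. Acta2 was above all 8, at 1884 against 514 to 1108, 1 of 10 against 24.8%. Col1a1, Col1a2 and Des lay within the range of the livers. Putting this array back among the controls turned the Reln change to 0.63 with DCAC and 0.50 with DCAA, and the Acta2 change to -0.24 and -0.22.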

How the data were processed

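Total RNA from 1 liver per mouse was labelled and hybridised to 9 one-colour Affymetrix arrays. The deposited table holds 1 linear intensity for each probe set and array, which the authors obtained with GCOS, the Affymetrix software, per the submitters' processing notes; they state no version. Without the top and bottom 2% of its probe sets every array has a mean of 500.0. Groups follow the labels. Of 36 pairs of arrays 0 were identical.

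The 64 manufacturer's control probe sets were left out. Each array's 25th percentile served as a floor before log2. A probe set was kept (24531 of 45037) when 3 or more of the 8 arrays showed it above their median. Symbols come from the array annotation; for each gene the kept probe set with the highest mean stands for it. The test was limma 3.58.1 under R 4.3.3 (lmFit, eBayes with trend, 8 arrays in 1 model, two-sided), with adjustment over everything kept; all treated mice were compared with corn oil in a model of 2 groups. The median 95% interval reached 1.56-fold either way against corn oil. The fit was tested on simulated data. From each pathway list the 2 brightest and up to 2 genes of smallest p were named, with markers and leads on DCAA 3 chosen after their values were seen. The alternatives were 22 other settings, 8 of which leave out an array. Counts of leads on DCAA 3 use the probe sets kept by the other 7 arrays, a setting added after seeing the data. The members, the lists and the exclusion of control 2 were chosen with earlier results of these data known.

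Replicate numbers were checked for pairing: deviations of arrays with the same number correlated between -0.0408 and 0.0275, and the numbers were read as names only.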

Additional observations from a re-analysis of the deposited data

Results flagged for a closer look

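Acta2 read 1884.4 on control 2, the array with kidney transcripts that enters no comparison, above the 514 to 1108 of the other 8 arrays. Of the 10 genes 1 was above all 8 there, against 24.8% of all probe sets.

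Dcn lay below both corn oil livers in every DCAC liver and above both in every DCAA liver. Of all probe sets 12.5% lay wholly below the controls with DCAC and 16.1% wholly above them with DCAA. In 7.63% every DCAC liver was below every DCAA liver, as for Dcn. The difference between the compounds was -0.36 in log2 (SE 0.14, limma adjusted p = 0.493), which does not pass, and -0.18 with arrays set to a common median. The DCAA liver nearest to the controls lay closer to the higher control than the controls to each other.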

How the results depend on the processing

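No probe set of the 10 genes passed under any of the 22 settings; the smallest adjusted p was 0.0969 (limma). Of 842 changes of these genes under other settings 59 turned in sign and 783 kept it; the cause was not tested. The numbers of probe sets called over the whole array were 8 with DCAC, 20 with DCAA, 1 between the compounds and 18 for all treated mice. In that order they were 0, 0, 0 and 0 with control 2 put back, 2, 0, 3 and 5 with a block for the class of the 3'/5' ratio, and 0, 0, 0 and 2 with eBayes without trend. Array weights gave 30, 141 and 62 for the comparisons with corn oil, and no filter gave 1, 4 and 0 for the first 3. Robust eBayes gave 1 for DCAC, a common median 9 for DCAA and 0 between compounds, and only the groups compared gave 2 between compounds. With replicate number as a block the count for all treated mice was 7 and the Lum change with DCAC 0.12. Leaving out each array in turn gave 2 to 14 with DCAC, 3 to 87 with DCAA, 0 to 2 between compounds and 4 to 27 for all treated mice.

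With control 2 put back the changes with DCAC, with DCAA and for all treated mice became -0.24, -0.22 and -0.23 for Acta2, 0.63, 0.50 and 0.56 for Reln, and 0.02, 0.61 and 0.31 for Lrat, and with DCAC 0.80 for Dcn and 0.66 for Lum. The ratio class as a block gave Col1a1 -0.63, -1.47 and -0.63, and 0.84 between compounds. It gave Acta2 -0.11 with DCAA and 0.31 between compounds, Lrat 0.88 with DCAA, Reln -0.10 between compounds, and Dcn -0.15 and Lum -0.06 for all treated mice. Array weights gave Col1a1 -0.33 with DCAC, Acta2 0.03 between compounds, and Lum -0.05 with DCAA and for all treated mice. A common median gave 0.17 for Acta2, 0.02 for Des and 0.01 for Lum between compounds, and 0.03 for Lum with DCAC. Quantile normalization gave Des 0.00 between compounds and Lum 0.01 with DCAC, and no floor gave Des 0.02 between compounds.

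Leaving out each array in turn moved Col1a1 from -0.63 to 0.55 with DCAC, -0.28 to 1.16 with DCAA, -1.14 to 0.31 between compounds and -0.25 to 0.79 for all treated mice. In the same order Col3a1 moved from -0.51 to 0.92, -0.08 to 1.34, -1.04 to 0.21 and -0.29 to 1.13, and Lum from -0.14 to 0.08, -0.20 to 0.33, -0.37 to 0.16 and -0.11 to 0.11. Between compounds Col1a2 moved from -0.76 to 0.24, Acta2 from -0.21 to 0.32, Des from -0.98 to 0.03 and Timp1 from -0.79 to 0.07. Dcn for all treated mice moved from -0.01 to 0.11 and Lrat with DCAA from -0.49 to 0.15. With 2 corn oil livers, leaving out either leaves a lone control that is assumed to vary like the other groups.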
